A study of Mus musculus with 9 samples.

Results

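The 40 genes described here encode proteins that copy DNA, drive the cell through S phase and mitosis, or are made chiefly while cells divide. They are listed by name, and the rule uses no measured value. All 40 were found by gene name on the array, where they are represented by 55 of 55681 probes and make up 40 of 34797 gene names. One probe stood for each of 28 genes, and the median over several probes was taken for the other 12.

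Gene expression was measured on one-color Agilent mouse arrays in Gr-1bright neutrophils sorted to a purity above 98% from FVB/N mice. All groups, including both skin groups, came from mice that had received the carcinogen DMBA when 6 and again when 13 weeks old, and repeated applications of the tumor promoter PMA from week 1 up to week 18 to 20, so that no group represents untreated skin. Neutrophils came from skin next to papillomas (papilloma skin, 2 arrays), skin next to carcinomas (tumor skin, 2 arrays), papillomas, which are precancerous outgrowths (3 arrays), and tumors, which are carcinomas (2 arrays). Each array held RNA from cells pooled over several mice, and precision is limited by how few arrays there are.

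A dividing cell duplicates its genome in S phase, for which the MCM helicase opens the DNA, the sliding clamp PCNA holds the polymerases, and ribonucleotide reductase and thymidylate synthase supply nucleotides. Cyclin B with CDK1 then starts mitosis, Aurora and Polo-like kinases and kinesin motors build the spindle, and the anaphase-promoting complex with CDC20 and UBE2C ends it. Neutrophils are made from dividing precursors in the bone marrow, and the mature cells that enter tissues are held to have left the cell cycle. In sorted bulk samples, fewer cells that express a gene and less of its RNA per cell cannot be told apart.

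Promoters of such genes are known for the cell cycle genes homology region (CHR), CCAAT boxes and sites of E2F factors, and the sequences before the starts of Pcna and Ube2c, the genes called in the comparison of tumor with tumor skin, and of Cdk1 and Mki67 are shown for that reason. Each runs 5′ to 3′ over the 250 bases before the start (RefSeq, build GRCm38.p6), at chr2:132253181-132253430 on the minus strand for Pcna, chr2:164769679-164769928 on the plus strand for Ube2c, chr10:69352913-69353162 on the minus strand for Cdk1 and chr7:135716380-135716629 on the minus strand for Mki67. Capitals mark a motif on either strand. For the CHR the letters searched were TTTGAA. The other box is spelled by its name, CCAAT. For E2F factors a match to any of 3 spellings counted. The first spelling was TTCCCGC. The next was TTGGCGC. The last was TTCGCGC.
Pcna: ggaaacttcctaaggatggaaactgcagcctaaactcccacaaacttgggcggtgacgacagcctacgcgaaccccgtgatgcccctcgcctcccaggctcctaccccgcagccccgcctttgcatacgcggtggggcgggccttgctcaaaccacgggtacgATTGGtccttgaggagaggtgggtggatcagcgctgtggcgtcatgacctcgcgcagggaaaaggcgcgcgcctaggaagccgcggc
Ube2c: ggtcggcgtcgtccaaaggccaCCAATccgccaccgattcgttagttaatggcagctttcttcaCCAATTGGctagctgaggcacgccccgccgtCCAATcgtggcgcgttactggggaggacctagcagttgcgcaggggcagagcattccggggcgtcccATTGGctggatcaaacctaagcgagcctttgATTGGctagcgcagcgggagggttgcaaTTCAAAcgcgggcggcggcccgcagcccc
Cdk1: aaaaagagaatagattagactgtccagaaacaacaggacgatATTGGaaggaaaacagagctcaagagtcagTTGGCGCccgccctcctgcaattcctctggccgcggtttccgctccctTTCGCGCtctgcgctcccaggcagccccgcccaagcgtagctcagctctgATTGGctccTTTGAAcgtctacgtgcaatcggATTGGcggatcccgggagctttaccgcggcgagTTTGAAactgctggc
Mki67: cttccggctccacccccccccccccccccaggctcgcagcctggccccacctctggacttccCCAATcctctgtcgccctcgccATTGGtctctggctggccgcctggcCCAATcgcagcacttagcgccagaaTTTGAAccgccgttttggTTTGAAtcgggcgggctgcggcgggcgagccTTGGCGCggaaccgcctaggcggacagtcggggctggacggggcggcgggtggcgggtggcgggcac
The Ube2c stretch held 1 CHR, 29 to 24 bases before the start, and 6 CCAAT matches, of which a pair on opposite strands overlapped. Cdk1 held 2 CHR, 3 CCAAT and 2 E2F matches, Mki67 held 2 CHR, 3 CCAAT and 1 E2F match, and Pcna held a single CCAAT, 87 to 83 bases before the start. Promoters were given for 33 of the 40 genes, counted over 250 bases before to 50 bases after the start. TTTGAA was found in 16 of these (48.5%, against 20.2% of 27025 genes with a promoter), CCAAT in 26 (78.8% against 41.1%) and at least 1 of the 3 E2F motifs in 9 (27.3% against 9.2%). By role, TTTGAA was found in 5 of 7 spindle and kinetochore genes and in 1 of 10 replication genes, and E2F motifs in 6 of 10 replication genes and in 0 of 7 spindle and kinetochore genes. A match describes letters only and is not evidence of a bound site.

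Values below are the authors' deposited log2 values per probe. They have to be read with the state of the arrays in view. The arrays papilloma skin 1, tumor skin 1 and tumor 1, all on slide 1, had 90.7% to 95.04% of spots well above background and spike-in slopes of 0.678 to 0.894, against 44.2% to 64.2% of spots and slopes of 1.04 to 1.06 on the other 6 arrays. Those 6 arrays of full range were papilloma skin 2, tumor skin 2, papilloma 1, 2 and 3, and tumor 2. Comparisons over them thus rest on a single array each of papilloma skin, tumor skin and tumor. The deposited column of papilloma skin 1 ranked probes unlike its own scanner file (Spearman's rho 0.588) and closer to that of tumor 2 (0.924), and the column of tumor 1 correlated at 0.827 with its own file and at 0.947 with that of tumor 2. For papilloma 2 and papilloma 3, each column ranked probes most like the other array's file (0.981 and 0.959, against 0.936 and 0.940 for their own), so that the slide of these columns, and the differences within slide 2 that use papilloma 2, carry that doubt. The arrays were spread over 3 slides. Array 1 of every group was on slide 1. Tumor 2, papilloma 2 and papilloma skin 2 shared slide 2, whereas papilloma 3 shared slide 3 with tumor skin 2. Results that rest on the doubtful arrays are therefore given with and without them, and in scanner values.

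RNA of most of the 40 genes was measurable in the sorted neutrophils. In the scanner files, 28 genes were well above background on all 9 arrays, and 31 had a mean log2 level of 6 or more, the minimum for a call. On none of the 6 arrays with full signal range were the mitotic kinase genes Aurkb and Ttk, the spindle motor gene Kif11 and the cyclin gene Ccne2 well above background, and their differences carry little information. All 8 neutrophil markers were well above background on these 6 arrays, with a log2 summed level of 19.98 to 20.3 over the 9 arrays. The sum does not show single markers. Ly6g had a mean of 12.4 in tumor skin and 10.3 in tumor. It was called lower in tumor (log2 fold change -2.09, SE 0.327, adjusted p = 0.00849 in limma).

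Most of the genes moved up and down together from array to array, whatever the group (see the color map of the 40 genes). The array tumor skin 1 held the lowest value of 22 of the 40 genes and papilloma 1 the highest value of 18. The median level of the 40 genes was 6.28 in tumor skin 1 and 7.10 in tumor skin 2, 7.29 and 7.15 in papilloma skin, 7.69, 7.07 and 7.26 in papillomas, and 6.89 and 7.43 in tumors. Arrays of a group thus differed by as much as most groups did, with a pooled SD of 0.372 for this median. Pearson's r with the median of the other members over the 9 arrays was 0.98 for Cdc20 and 0.97 for Plk1, Prc1 and Mcm6, whereas it was -0.71 for the cytokinesis motor gene Kif23, -0.64 for Ttk and -0.45 for the spindle gene Nusap1. These r values describe 9 arrays that share slides and differ in signal range. Among 4291 other genes at the level minimum with an SD of at least 0.5, the closest to the member median were Tmem97 (r = 0.99), Pigf (0.98), Oaf (0.98), Tyms-ps (0.98) and the chromosome motor gene Kif22 (0.97).

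**Figure D1:**
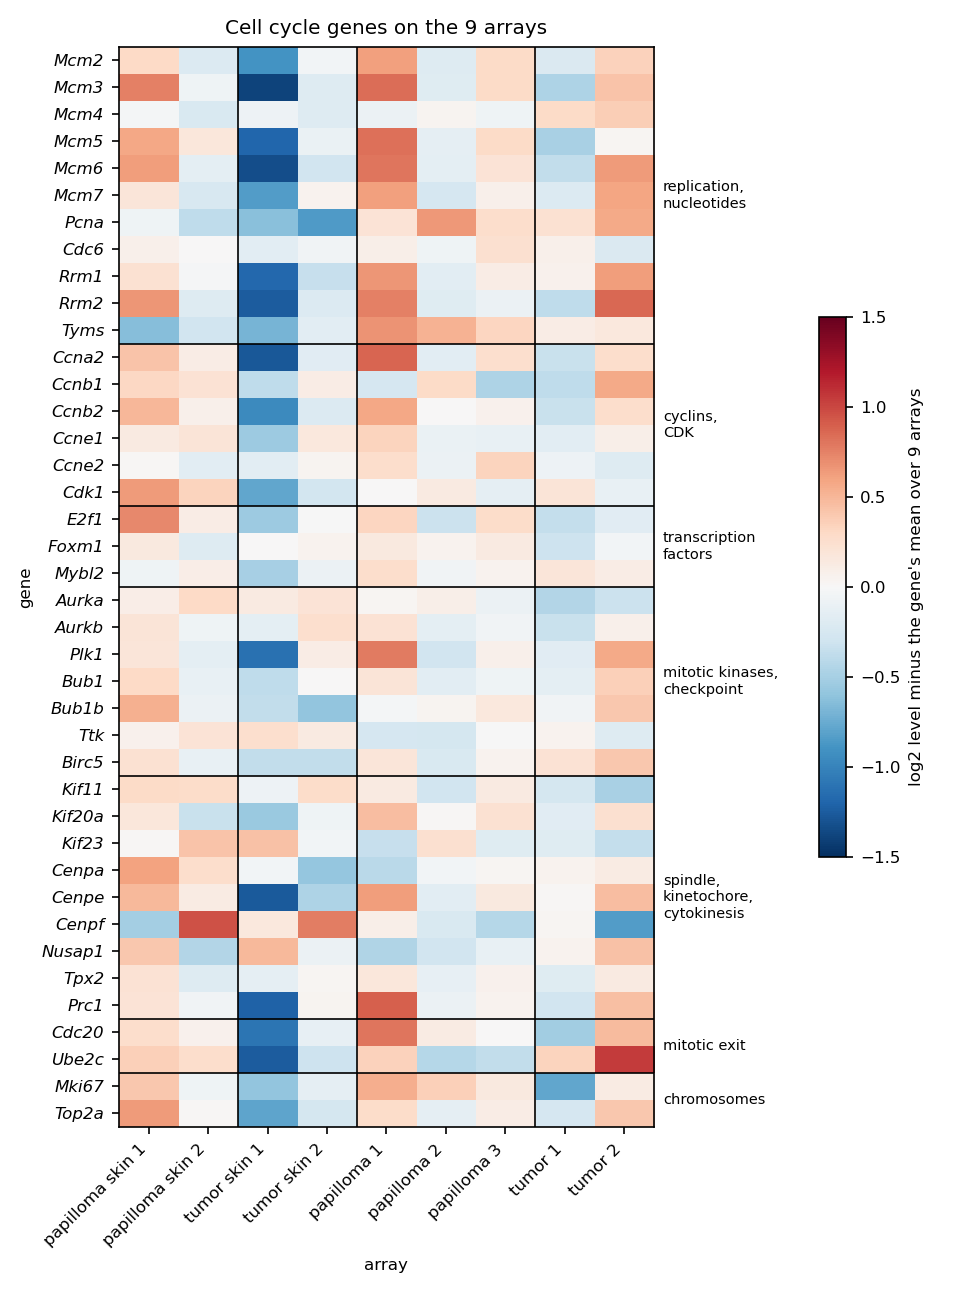
Levels of the 40 cell cycle genes (rows, grouped by role) on the 9 arrays (columns, groups separated by lines), as the log2 level of the deposited value table minus the mean of the gene over all arrays. Blue fills most of the column of tumor skin 1, which holds the lowest value of 22 genes, and red much of the column of papilloma 1, which holds the highest value of 18.

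To find genes that differ between neutrophils of carcinomas and of the skin around them, tumor was compared with tumor skin. Pcna, the sliding clamp, and Ube2c, the ubiquitin-conjugating enzyme of mitotic exit, were called higher in tumor by limma, which required an adjusted p no higher than 0.05, a change of 1 or more on the log2 scale in either direction, and a mean level of 6 or more. These 2 of 40 genes (5%) stand beside 2.75% of all genes called higher, and none of the 40 was called lower, beside 1.61% of all genes. Of the genes at the level minimum, 2 of 31 members (6.45%) and 5.09% of all were called higher, so that the share of called members was close to that of all genes.

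Pcna had log2 levels of 11.30 and 11.08 in tumor skin and 12.15 and 12.49 in tumor. Both tumor arrays lay above both tumor skin arrays. The log2 fold change was 1.13 (SE 0.211), or 2.19-fold, with an adjusted p of 0.0163 in limma. Within slide 1, tumor exceeded tumor skin by 0.85, and by 1.00 in quantile normalized scanner values without slide correction. With replicate numbers as a block the log2 fold change stayed at 1.13 but was not called (adjusted p = 0.0857 in limma). The call was lost with slide as a term (0.98, adjusted p = 0.147), without tumor skin 2 (1.02, adjusted p = 0.0713), without tumor 2 (0.96, adjusted p = 0.116) and in all scanner settings, in which the difference was 0.93 to 1.23 and at most 1.71% of all genes were called in either direction. Its only probe is named Pcna by the array design, at mm9 chr2:132075022-132075054, a span of 33 of the 60 bases of the probe.

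Ube2c had log2 levels of 6.26 and 7.20 in tumor skin and 7.84 and 8.56 in tumor, again without overlap. The log2 fold change was 1.48 (SE 0.381), or 2.78-fold, with an adjusted p of 0.0469 in limma, close to the threshold. The 2 probes of the gene gave similar log2 fold changes of 1.39 and 1.56. Within slide 1 the difference was 1.59 (4.28 in quantile normalized scanner values without slide correction), and with slide as a term 1.56 (adjusted p = 0.191). With replicate numbers as a block it was 1.48 and was not called (adjusted p = 0.139 in limma). In the 6 scanner settings it was 1.44 to 2.89, with no call (smallest adjusted p 0.0725). The call was lost when papilloma skin 1 or papilloma skin 2 (adjusted p = 0.0648 each), tumor skin 1 (0.180, with a log2 fold change of 1.01), papilloma 2 (0.0623), papilloma 3 (0.0761), tumor 1 (0.0641) or tumor 2 (0.254) was left out. Without both papilloma skin 1 and tumor 1, Pcna was still called (1.30, adjusted p = 0.0471) and Ube2c was not (1.83, adjusted p = 0.0907).

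The general proliferation markers gave no call in this comparison. Mki67, which coats mitotic chromosomes, had levels of 8.66 and 9.12 in tumor skin and 8.47 and 9.38 in tumor. The tumor arrays enclosed those of tumor skin (log2 fold change 0.03, SE 0.319, adjusted p = 0.961 in limma). In the scanner settings Mki67 was at 0.29 to 1.47, with the smallest adjusted p at 0.109. Top2a, the topoisomerase that untangles replicated DNA, had 5.54 and 6.07 in tumor skin and 6.08 and 6.73 in tumor (0.60, SE 0.302, adjusted p = 0.243). Cdk1, the mitotic kinase, had 4.85 and 5.36 in tumor skin and 5.83 and 5.52 in tumor (0.57, SE 0.213, adjusted p = 0.130), with 1 of its 3 probes well above background on no array. Its mean level of 5.63 was below the level minimum, so that it could not be called.

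Across the group, 32 of 40 genes had a higher mean in tumor than in tumor skin (80%, against 48.8% of all genes), with a median log2 fold change of 0.45, against -0.01 over all genes. All 11 replication and nucleotide genes were on the higher side, with a median of 0.59 and a range from 0.03 for the origin licensing factor Cdc6 to 1.13 for Pcna. In this role, Rrm1, the large subunit of ribonucleotide reductase (1.11, SE 0.347, adjusted p = 0.0821), and the helicase subunit gene Mcm4 (0.46, SE 0.136, adjusted p = 0.0683) came nearest to the threshold after Pcna. The cyclin and CDK genes had a median of 0.39, with 5 of 6 higher, and the mitotic kinase and checkpoint genes a median of 0.29, with 4 of 7 higher. The survivin gene Birc5, of the chromosomal passenger complex, was at 0.68 (SE 0.184, adjusted p = 0.0527) and the checkpoint gene Bub1b at 0.66 (SE 0.237, adjusted p = 0.119). The 3 probes of Birc5 gave unlike log2 fold changes of 0.93, 0.15 and 1.43. Their median fell on a different probe in the tumor arrays than in the tumor skin arrays, which limits the value and SE of Birc5. The mean level of Bub1b, 5.97, was below the minimum for a call. Aurka, the kinase of spindle poles, lay in the other direction, at -0.54 (SE 0.139, adjusted p = 0.0458 in limma), below the fold minimum of a call. The 9 spindle, kinetochore and cytokinesis genes ranged from -0.87 for Cenpf to 1.10 for the kinetochore motor gene Cenpe (SE 0.335, adjusted p = 0.0760), with a median of 0.04. The transcription factor gene Mybl2 was at 0.44 (SE 0.180, adjusted p = 0.164), and E2f1 and Foxm1 at 0.02 and -0.21.

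An unadjusted p under 0.05 was reached by 10 genes on the higher side (25%, against 14.4% of all genes) and by 2 on the lower side (5%, against 12.6%). The arrays did not overlap for 12 genes higher in tumor (30%) and for 6 lower (15%), with 26.2% of all genes in each direction. The median of 0.45 rested in part on single arrays. It was 0.11 without tumor skin 1, 0.22 without tumor 2 and 0.57 without papilloma skin 1 and tumor 1. In scanner values it was 0.36 over the 6 arrays of full range, which hold a single array of tumor and of tumor skin. After quantile normalization and ComBat over all 9 it was 1.30, and no member was called.

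**Figure D2:**
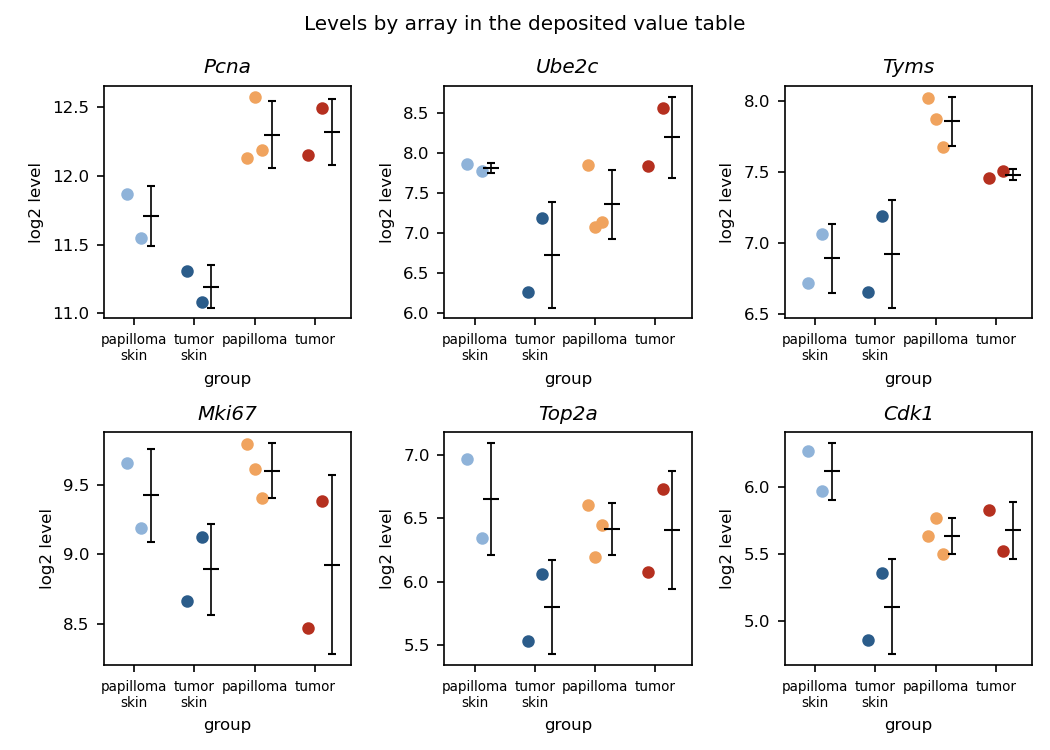
Log2 level in the deposited value table of 6 genes in each group, with 1 point per array and the mean with SD beside the points. Pcna and Ube2c are higher in both tumor arrays than in both tumor skin arrays, Tyms is higher in all papilloma arrays than in both papilloma skin arrays, and the tumor arrays of Mki67 enclose those of tumor skin.

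At the precancerous stage, papilloma was compared with papilloma skin in the same fit. No member was called, beside 2.43% of all genes called higher and 1.17% called lower. An unadjusted p under 0.05 was reached by 4 members, 2 in each direction (5%, against 11.8% of all genes higher and 9.95% lower). Tyms, thymidylate synthase, described in full after its values were seen, had log2 levels of 6.72 and 7.06 in papilloma skin and 8.02, 7.87 and 7.67 in papilloma. No array of either group overlapped with the other, and the log2 fold change was 0.97 (SE 0.197, adjusted p = 0.0240 in limma), just under the fold minimum. Pcna had 11.87 and 11.55 in papilloma skin and 12.13, 12.58 and 12.19 in papilloma, also without overlap, for a log2 fold change of 0.59 (SE 0.193, adjusted p = 0.116). Both genes were on the higher side in every alternative tried, and after ComBat of quantile normalized scanner values both were called (Tyms 2.40, adjusted p = 0.0322, and Pcna 1.47, adjusted p = 0.0349). These were the only members called in that setting, 5% of the 40 genes beside 8.01% of all genes in either direction. The adjusted p of Tyms was 0.134 without papilloma skin 1 (0.79), 0.0554 without papilloma skin 2, 0.0818 without papilloma 1 and 0.0693 without papilloma 2.

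The mitotic genes Cdk1 and Cenpa had lower means in papilloma. Cdk1 had 6.27 and 5.97 in papilloma skin and 5.63, 5.77 and 5.50 in papilloma (log2 fold change -0.49, SE 0.194, adjusted p = 0.192 in limma). Its 3 probes disagreed in direction, at -0.98, 0.32 and 0.18, so that a lower level of Cdk1 in papilloma was not established. The probe at 0.32 was well above background on no array. The centromere histone gene Cenpa was at -0.57 (SE 0.208, adjusted p = 0.157). Both values turned positive in the scanner settings over all arrays. Mki67 had 9.66 and 9.19 in papilloma skin and 9.79, 9.61 and 9.40 in papilloma (0.18, SE 0.291, adjusted p = 0.786), and Top2a had 6.96 and 6.34 against 6.60, 6.20 and 6.45 (-0.24, SE 0.276, adjusted p = 0.687), both with overlapping arrays. Of the 40 genes, 18 had a higher mean in papilloma (45%, against 48.6% of all genes), the median was -0.05, and the arrays did not overlap for 2 genes higher (5%, against 19.9%) and 5 lower (12.5%, against 18.4%). By role, the medians were 0.09 for replication and nucleotide genes, -0.10 for cyclins and CDK, -0.11 for mitotic kinases and checkpoint, and -0.26 for spindle, kinetochore and cytokinesis. Within slide 1 the median difference was 0.08 and within slide 2 it was -0.08. In quantile normalized scanner values without slide correction these were 1.88 and 0.18. In scanner values 31 of 40 genes were on the higher side, with a median of 0.75 after ComBat and of 0.30 over the 6 arrays of full range.

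**Figure D3:**
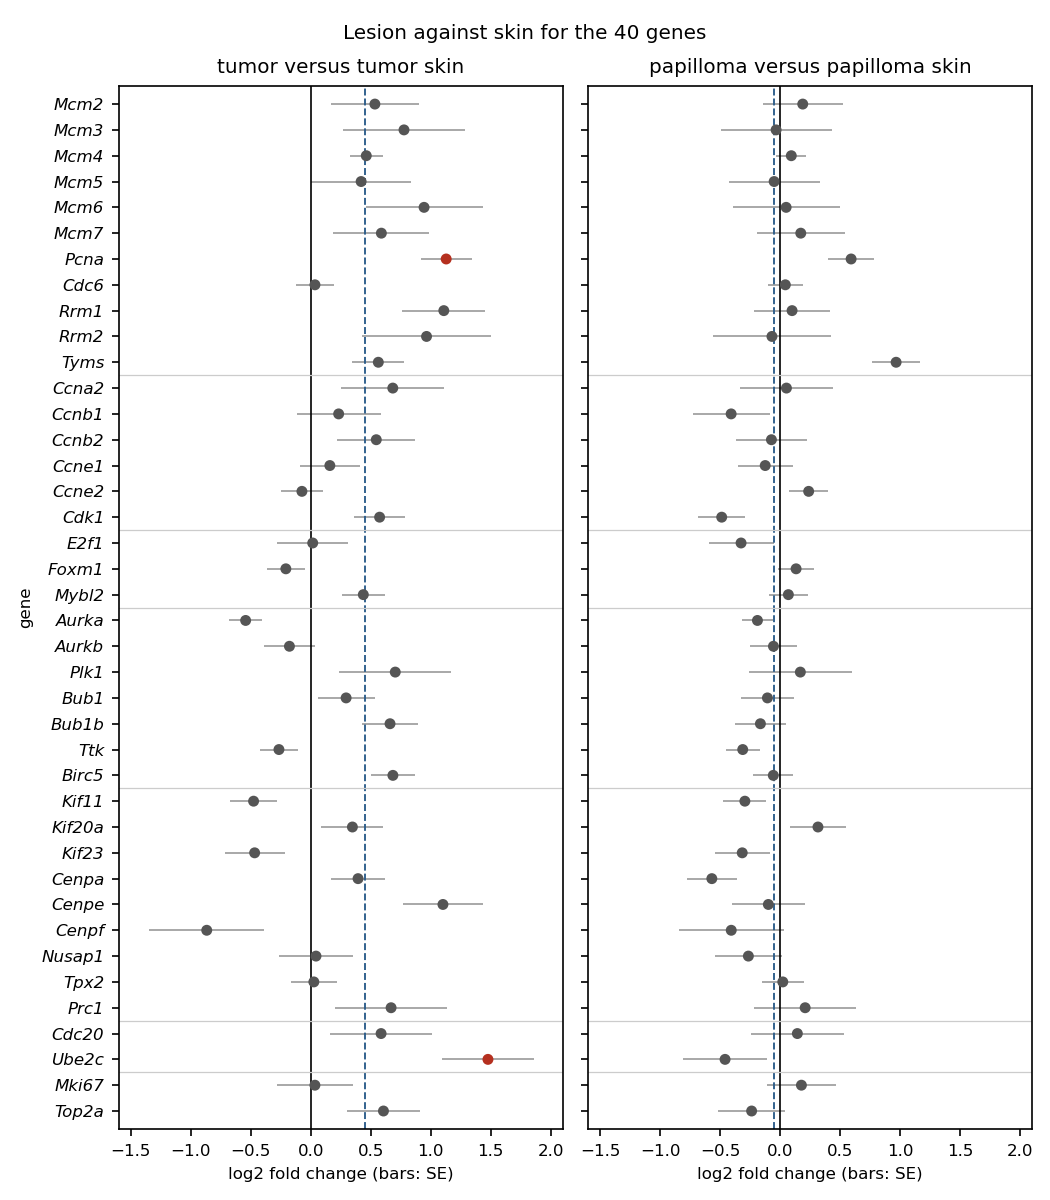
Log2 fold change (point) with its SE from limma (bar) of the 40 genes in tumor versus tumor skin (left) and papilloma versus papilloma skin (right), in order of role. Red points are called genes, the solid line marks 0 and the dashed line the median of the 40 genes, at 0.45 on the left and at -0.05 on the right.

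The lesion effects of the stages were compared by the difference of both contrasts. No member was called, beside 0.0259% of all genes called higher and 0.0632% called lower. The difference was positive for 30 of 40 genes (75%, against 51.2% of all genes), with a median of 0.41. An unadjusted p under 0.05 was reached by 6 genes, all on the positive side (15%, against 6.8% of all genes positive and 7.31% negative). For Ube2c it was 1.93 (SE 0.516, adjusted p = 0.192 in limma), for Cdk1 1.06 (SE 0.288, adjusted p = 0.193), for Cenpe 1.20 (SE 0.454, adjusted p = 0.297), for Cenpa 0.96 (SE 0.309, adjusted p = 0.247), for Bub1b 0.82 (SE 0.320, adjusted p = 0.306) and for Birc5 0.74 (SE 0.249, adjusted p = 0.260). Cdk1 and Bub1b had mean levels of 5.63 and 5.97, below the minimum for a call. The probes of Cdk1 also disagreed in direction in papilloma versus papilloma skin, which enters its stage difference. Those of Birc5 ranged from 0.15 to 1.43 in tumor versus tumor skin, which enters the stage difference of Birc5. A lesion effect that differs between stages was therefore not established for any member. The median was 0.08 without tumor skin 1 and 0.16 without tumor 2, and in scanner values it was 0.02 over the 6 arrays of full range and 0.32 to 0.61 over all arrays.

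The skin groups were compared with each other, since every lesion effect is read against them. No member was called, beside 0.195% of all genes called higher and 0.181% called lower in tumor skin. Yet 34 of 40 genes had a lower mean in tumor skin than in papilloma skin and 6 a higher one (15%, against 48.5% of all genes), with a median log2 fold change of -0.47, and for 22 genes (55%, against 25.2% of all genes) both tumor skin arrays lay below both papilloma skin arrays, with 0 genes in the other direction (against 24% of all genes). Cdk1 was at -1.02 (SE 0.213, adjusted p = 0.0693 in limma), Cenpe at -1.16 (SE 0.335, adjusted p = 0.123), Cenpa at -0.74 (SE 0.228, adjusted p = 0.135), Bub1b at -0.70 (SE 0.237, adjusted p = 0.155), Ube2c at -1.09 (SE 0.381, adjusted p = 0.163) and Top2a at -0.85 (SE 0.302, adjusted p = 0.167). An unadjusted p under 0.05 was reached by 13 genes on the lower side (32.5%, against 11.3% of all genes) and by 0 on the higher side (against 11%). Tumor skin 1 and papilloma skin 1 were among the arrays with a compressed range. The median was -0.13 without tumor skin 1, which moved it most, and -0.36 without papilloma skin 1. It was -0.64 without papilloma skin 2 and -0.62 without tumor skin 2. In scanner values it was 0.07 over the 6 arrays of full range and 0.02 to 0.16 in the other settings, so that the negative median over the 40 genes was seen only in the value table. Of the genes named above, some kept their direction over the 6 scanner settings, none of them called. Bub1b was at -2.23 to -0.66, Cdk1 at -1.37 to -0.0408, Cenpe at -0.60 to -0.19 and Ube2c at -0.60 to -0.23. Cenpa, at -0.89 to 0.57, and Top2a, at -0.22 to 0.08, did not keep it. In the value table the mean levels of Cdk1 (5.63) and Bub1b (5.97) were below the minimum for a call.

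Tumor and papilloma were compared directly as well. No member was called, beside 0.147% of all genes called higher and 0.46% called lower in tumor. The median was -0.11, with 17 of 40 genes higher (42.5%, against 48.8% of all genes). An unadjusted p under 0.05 was reached by 2 genes on each side (5%, against 7.64% of all genes higher and 7.58% lower), and the arrays did not overlap for 4 genes on each side (10%, against 18.9% higher and 17.9% lower). Aurka was at -0.39 (SE 0.127, adjusted p = 0.218 in limma), Mki67 at -0.68 (SE 0.291, adjusted p = 0.325), Mcm4 at 0.36 (SE 0.124, adjusted p = 0.232) and Ube2c at 0.84 (SE 0.348, adjusted p = 0.307). Within slide 1 the median difference of tumor from papilloma was -0.48, and within slide 2 it was 0.26. In quantile normalized scanner values without slide correction these were 0.34 and 0.29, so the negative difference within slide 1 was not kept. In scanner values over all arrays the median was positive, at 0.57 after ComBat.

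**Figure D4:**
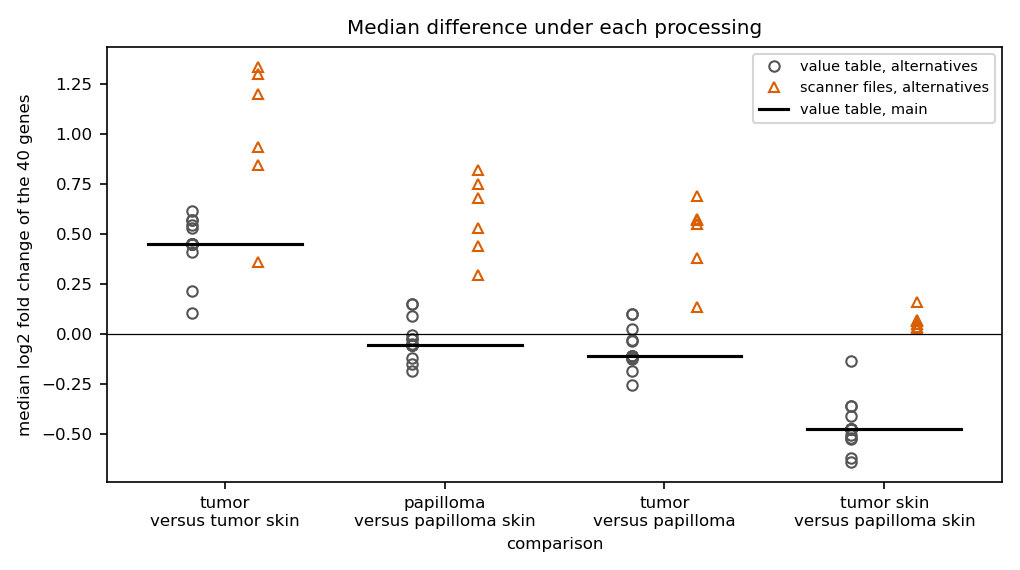
Median log2 fold change of the 40 genes in each of the 4 comparisons between groups, in the value table as reported (line), in alternatives of the value table (circles) and in settings that start from scanner files (triangles). Tumor versus tumor skin lies above 0 in all of them, whereas tumor skin versus papilloma skin is at -0.47 as reported and above 0 in all scanner settings.

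For the arrays in doubt, the median level of the 40 genes differed between the sources of the values. In quantile normalized scanner values without slide correction, it was 5.50 in papilloma skin 1 and 8.29 in tumor 1, against 7.29 and 6.89 in the value table. On the 6 arrays of full range both sources gave medians between 6.99 and 7.69.

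**Figure D5:**
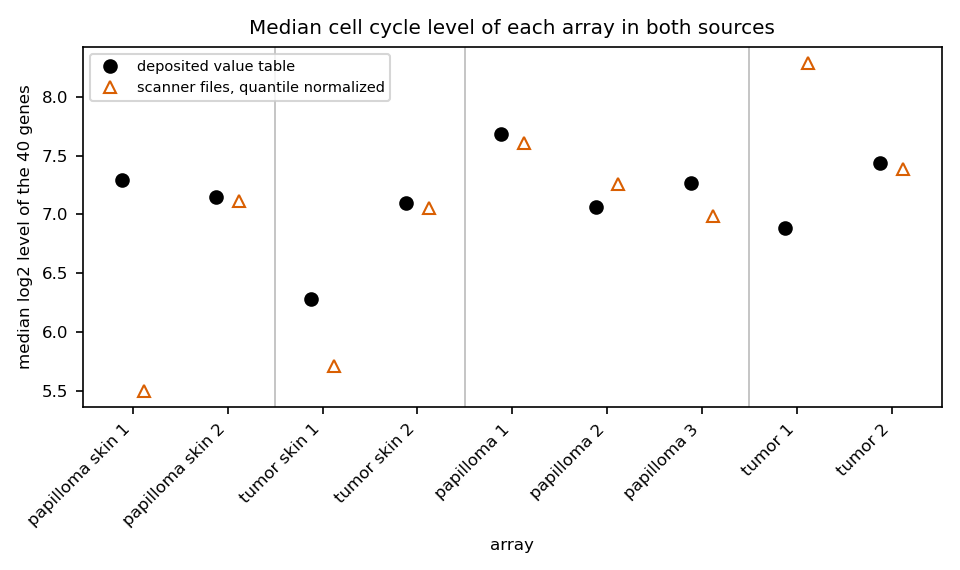
Median log2 level of the 40 genes on each array, in the deposited value table (dots) and in quantile normalized scanner values (triangles). The sources lie apart at papilloma skin 1 (7.29 and 5.50), tumor skin 1 (6.28 and 5.71) and tumor 1 (6.89 and 8.29).

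Further genes of the pathway were read in the same fit. Of all genes, 48.8% were on the higher side in tumor versus tumor skin and 2.75% were called higher. In papilloma versus papilloma skin these shares were 48.6% and 2.43%. Of 37 other replication genes, 35 were on the higher side in tumor versus tumor skin (median 0.37), and 3 were called higher, namely Chaf1b, a chromatin assembly factor (1.99, SE 0.266, adjusted p = 0.00496 in limma), the licensing factor gene Cdt1 (1.85, adjusted p = 0.0167) and the replication initiation gene Mcm10 (1.83, adjusted p = 0.00902). Of 23 alternatives, Chaf1b lost its call in 8, Cdt1 in 9 and Mcm10 in 10, and in scanner values Chaf1b was at 1.63 to 2.09, Cdt1 at 1.64 to 2.32 and Mcm10 at 0.14 to 1.31. In papilloma versus papilloma skin, 18 of 37 were on the higher side, and Mcm10 (1.57, adjusted p = 0.0118) and Chaf1b (1.36, adjusted p = 0.0145) were called, calls that were lost in 8 and 9 alternatives. Of 60 other mitotic genes, 46 were on the higher side in tumor versus tumor skin (median 0.27), and the condensin gene Ncapg2 was called (1.495, SE 0.153, adjusted p = 0.00192), a call lost in 6 of 23 alternatives. In papilloma versus papilloma skin 37 of 60 were higher and 0 were called.

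Some inhibitors of the cell cycle were called higher in lesions, but the CDK inhibitors did not move together. At each stage 4 of 7 were on the higher side, with medians of 0.25 for tumor and 0.13 for papilloma, each against its skin. None was called lower. Their log2 summed level was 13.63 and 13.54 in tumor and 14.22 and 13.74 in tumor skin. It was 12.98, 13.48 and 13.07 in papilloma and 13.38 and 13.55 in papilloma skin. Of all genes, 2.75% were called higher and 1.61% lower in tumor versus tumor skin, and 2.43% and 1.17% in papilloma versus papilloma skin. Of 7 CDK inhibitor genes, Cdkn1a, which encodes p21, was higher in tumor than in tumor skin (2.15, SE 0.306, adjusted p = 0.00612) and in papilloma than in papilloma skin (1.91, SE 0.279, adjusted p = 0.00627). Cdkn2a (1.54, adjusted p = 0.00567) and Cdkn2b (1.35, adjusted p = 0.0206) were called higher in tumor versus tumor skin. Of 23 alternatives, the calls in tumor versus tumor skin were lost in 8 for Cdkn1a, 6 for Cdkn2a and 11 for Cdkn2b, and in scanner values these genes were at 1.35 to 3.41, 0.16 to 1.17 and 0.71 to 2.59. Among 12 G1 cyclins and kinases, Ccnd3 was called lower at both stages (-1.98 and -1.29, adjusted p = 0.0106 and 0.0395) and Ccnd1 higher in papilloma (2.18, adjusted p = 0.0210). Tfdp1, the partner of E2F factors, was called lower at both stages (-1.16 and -1.07, adjusted p = 0.0101 and 0.00984), and Mxd4, an antagonist of MYC, lower in tumor (-1.33, adjusted p = 0.0184). These calls were lost in 9 to 11 alternatives each, or for Tfdp1 in papilloma lost in 6 and reversed in 3. In quantile normalized scanner values without slide correction, Cdkn1a was at -0.000386 and Tfdp1 at 0.12 in papilloma versus papilloma skin, so that their directions at this stage were not kept there. Other members of the RB, E2F and DREAM list and of the list of quiescence genes gave no call in these contrasts.

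Genes of immature neutrophils, which are made in dividing or recently divided precursors, were mostly on the lower side in lesions. Of 15 such genes, 5 were called lower in tumor than in tumor skin, beside 1.61% of all genes. In papilloma versus papilloma skin 7 were called lower, beside 1.17% of all genes. None was called higher, and 3 were on the higher side at each stage. Camp, a granule antimicrobial peptide, was at -3.72 and -4.13 (adjusted p = 0.00138 and 0.000424), Ngp at -3.39 and -3.27 (adjusted p = 0.00119 and 0.000588), and Ltf, lactoferrin, at -2.31 and -2.46 (adjusted p = 0.0116 and 0.00627). Chi3l3, a chitinase-like protein, was called lower in tumor (-2.30, adjusted p = 0.0304). At each stage the calls of Camp and Ngp were lost in 3 of 23 alternatives and that of Ltf in 6 or 7. The call of Chi3l3 in tumor was lost in 11.

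Markers of other cell types moved with some of these values. Of all genes, 2.75% were called higher and 1.61% lower in tumor versus tumor skin. In papilloma versus papilloma skin these shares were 2.43% and 1.17%. All 8 keratinocyte markers were on the higher side in tumor versus tumor skin (1 called, Krt14), with log2 summed levels of 12.8 and 14.8 in tumor and 11.7 and 12.9 in tumor skin, and of 14.2, 13.1 and 13.1 in papilloma and 12.9 and 11.9 in papilloma skin. The sum over 6 endothelial markers was 10.3 and 10.8 in tumor, 10.03 and 10.65 in tumor skin, 11.5 to 12.2 in papilloma and 10.3 and 10.6 in papilloma skin. Of them, 4 were called higher in papilloma versus papilloma skin, and 1, Cdh5, in tumor versus tumor skin (2.39, adjusted p = 0.0237 in limma). The sum over 6 fibroblast markers was 12.3 and 13.8 in tumor, 13.0 and 13.1 in tumor skin, 15.0 to 15.5 in papilloma, and 13.6 and 14.6 in papilloma skin. In tumor versus tumor skin 4 of the 6 were on the higher side, and Dcn was called lower (-1.38, adjusted p = 0.0444 in limma). The array papilloma 1, which held the highest value of 18 cell cycle genes, also had the highest endothelial and fibroblast sums. Tumor skin 1, with the lowest value of 22, had the lowest endothelial and keratinocyte sums. The highest keratinocyte sum was in tumor 2 (14.8), however, and the lowest fibroblast sum in tumor 1 (12.3). All 8 keratinocyte markers were also on the higher side in papilloma versus papilloma skin, where the median of the 40 genes was -0.05. Red blood cell markers summed to 18.3 and 18.8 in tumor and 15.6 and 16.2 in tumor skin, with 3 of 4 called higher. T cell sums were 11.7 in tumor and 12.5 and 12.6 in tumor skin. B cell sums were 7.88 and 7.93 in tumor and 9.28 and 9.93 in tumor skin. Dendritic cell sums were 11.6 and 11.7 in tumor, 13.5 and 14.4 in tumor skin and 13.1 to 14.8 in the other groups, and eosinophil sums were 10.9 to 11.8 in lesions and 12.6 to 13.9 in skin. The 6 eosinophil markers did not move together in tumor versus tumor skin, where 3 were on the higher side. Siglec5 was called higher there (1.49, SE 0.250, adjusted p = 0.0110 in limma), and 3 markers, Ear1, Ear2 and Ccr3, were called lower. Monocyte and macrophage sums lay between 17.4 and 18.0 on all arrays. They follow Cd14, with a mean level of 17.66, against 7.03 to 11.22 for the other markers of that list. These sums therefore do not show the other markers. Emr1 was called lower in both lesions, at -2.10 in tumor and -3.01 in papilloma, each against its skin. Of the 8 markers, 3 were on the higher side in tumor and 5 in papilloma. Mast cell sums lay between 10.1 and 11.4 with no call. Xcr1 of dendritic cells and Epx of eosinophils did not exceed background clearly on any of those 6 arrays. The part of these cells in the values of the 40 genes was not tested.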

How the data were processed

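The authors extracted total RNA, labeled it with Cy3 and hybridised it to one-color Agilent arrays read with Feature Extraction 10.7.3.1. Their methods give quantile normalization in limma and ComBat correction by chip. The deposited value table holds log2 values per probe, and which of these steps it contains is not stated. The deposited scanner files hold the processed signal intensity per spot. Here, the log2 values were tested with limma 3.58.1 (R 4.3.3) over all 9 arrays and 34797 genes (median over probes, 5 residual degrees of freedom) with Benjamini-Hochberg adjustment. Calls are defined in the report. The test was checked on simulated data. By rule, values of every array were given for members called and for Mki67, Top2a, Pcna and Cdk1, and genes of other lists could be named only if called, with at most 4 a list. Mpo is named outside that rule, for its reversal. The members and lists were chosen with earlier results of these data known. Per the methods the arrays of a group are biological replicates from separate experiments. Whether replicate numbers pair the arrays is not stated, and they were used only as a block in an alternative fit. Alternatives were scanner intensities (quantile, 75th percentile or normexp), slide as a term or block, other filters, and leaving out arrays.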

Additional observations from a re-analysis of the deposited data

How the results depend on the processing

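Across the settings tried, the median of the 40 genes stayed above 0 in tumor versus tumor skin. In the order of scanner quantile values with ComBat, with slide as a term, without slide correction, with 75th percentile scaling and with normexp, it was 1.30, 1.34, 1.20, 0.94 and 0.85. In the same order it was 0.75, 0.68, 0.82, 0.53 and 0.44 for papilloma against papilloma skin, 0.57, 0.58, 0.55, 0.69 and 0.38 in tumor versus papilloma, and 0.0685, 0.0250, 0.160, 0.0541 and 0.0353 in tumor skin versus papilloma skin. In the 6 arrays of full range the last was 0.0725 and the stage difference 0.0225, which was 0.40, 0.42, 0.32, 0.61 and 0.32 in the order above. Scaling to the 75th percentile moved all genes, by a median of -0.36 between papilloma and papilloma skin and of 0.27 between tumor and papilloma. Leaving out each array in turn gave medians of 0.11 to 0.62 for tumor versus tumor skin, -0.19 to 0.15 for papilloma versus papilloma skin, -0.25 to 0.10 for tumor versus papilloma, -0.64 to -0.13 for tumor skin versus papilloma skin and 0.08 to 0.68 for the stage difference.

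The number of members called in tumor versus tumor skin was 0 in each of the 6 scanner settings (where 0% to 1.71% of all genes were called, and 0 genes with slide as a term or without slide correction), 0 in the value table with slide as a term, 1 without papilloma skin 1 and tumor 1, and 0 to 2 when each array was left out (0 without tumor 2). With replicate numbers as a block it was 0. Whether the numbers pair the arrays could not be decided. Over 2 pairs each, the correlations of deviations were 0.310 and 0.318 for tumor and papilloma, each against its skin. They were -0.252 for tumor against papilloma and -0.102 between the skin groups. Array 1 of every group was on slide 1, so pairing by number and slide cannot be told apart there. Crossing the papilloma skin numbers was chosen after seeing the data. It gave 2 genes called in tumor skin versus papilloma skin, compared with 2 for the numbers as given and 131 without a block. In papilloma versus papilloma skin, 2 members were called with ComBat (5%, against 8.01% of all genes), 4 with 75th percentile scaling (10%, against 12.2%), 3 with normexp (7.5%, against 8.05%), 1 without the fold minimum, and 0 to 1 when each array was left out.

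Some directions turned, in the order of scanner settings above. In papilloma versus papilloma skin, Cdk1 was at 0.73, 0.53, 0.73, 0.31 and 0.43, Cenpa at 0.51, 0.51, 0.43, 0.33 and 0.31, and Top2a at 1.36, 1.33, 1.62, 0.68 and 0.44, with 0.0737 without papilloma skin 1 and tumor 1, 0.29 in the 6 arrays, and -0.55 to 0.0737 when each array was left out (0.0737 without papilloma skin 1). Tfdp1 was at 0.19, 0.17 and 0.12 with the first 3, Cdkn1a at -0.000386 and Mpo at 0.0472 without slide correction, and Mki67 at -0.0567 to 0.41 when each array was left out (-0.0567 without papilloma skin 2). In tumor skin versus papilloma skin, Cenpa was at 0.51, 0.57, 0.33, 0.17 and 0.27, and Top2a at 0.0814 in the 6 arrays. In tumor versus papilloma, Mki67 was at 0.69, 0.69, 0.55, 0.29 and 0.62, Aurka at 0.12 with normexp and Mcm4 at -0.12 with 75th percentile scaling. In tumor versus tumor skin, Kif11 was at 0.22, 0.23, 0.19, 0.0122 and 0.00483, Tyms at -0.29, -0.30, -0.0490 and -0.0717 with the first 4, and Mki67, at 0.29 to 1.47 in scanner values, at -0.00736 in the value table with slide as a term and at -0.42 to 0.49 when each array was left out (-0.20 without tumor skin 1 and -0.42 without tumor 2). The stage difference of Cenpa was -0.0112 in scanner values with slide as a term. The cause was not tested.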
